A study of Mus musculus with 4 samples.

Results

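The peroxiredoxins Prdx1 to Prdx6 and the glutathione peroxidases Gpx1, Gpx2 and Gpx4 were followed in colon tumours of mice, 9 genes out of 14979 in the table, taken by their symbols. All 9 had enough tags to be tested. The tumours arose in mice given AOM/DSS, that is azoxymethane, a carcinogen, combined with dextran sulfate sodium, which causes colitis. Per the series' design text 2 mice were taken from each group, and all 4 carried such tumours, 2 treated with an antibody against MAdCAM-1 (MAdCAM1 1 and MAdCAM1 2) and 2 with a control IgG antibody (IgG 1 and IgG 2). Each gave 1 library, in which CAGE tags, short reads from the capped 5′ end of RNA, were counted. Strain, age, dose and treatment time are not given in the sources used here. The 9 genes were chosen by family, but with the measured fold changes between the 2 antibody groups in view, above all that of Prdx6. Their values in that comparison are therefore a description without a test.

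Both families remove hydrogen peroxide and organic peroxides, which inflamed gut epithelium makes and meets at its surface. Peroxiredoxins Prdx1 to Prdx5 are oxidised at a cysteine and are for the most part restored by thioredoxins. Prdx6 has a single catalytic cysteine, is restored by glutathione with the transferase Gstp1, and also acts on oxidised membrane phospholipids. Gpx1, Gpx2 and Gpx4 carry selenocysteine in place of that cysteine and draw on glutathione. Gpx1 works in the cytosol of most cells, Gpx2 is typical of gut epithelium, and Gpx4 reduces lipid peroxides within membranes and thereby guards against ferroptosis.

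Selenocysteine is encoded by TGA, a codon that otherwise ends a protein, and the reading of this codon sets these 3 genes apart from the peroxiredoxins. It is codon 47 of Gpx1 (chr9:108216650-108216652, GRCm39, plus strand), codon 40 of Gpx2 (chr12:76842030-76842032, minus strand) and codon 73 of Gpx4 (chr10:79890571-79890573, plus strand). The stretches below come from the GRCm39 genome at the codons annotated in GENCODE M39, 5′ to 3′ on the gene's strand, with the TGA in capitals and 12 coding bases on each side.
Gpx1: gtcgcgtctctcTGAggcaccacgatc
Gpx2: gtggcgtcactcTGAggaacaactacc
Gpx4: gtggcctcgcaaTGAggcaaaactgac

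Prdx1 and Prdx6 are shown by their promoters because they alone among the 9 held the core of the antioxidant response element, the site bound by the transcription factor NRF2. The core was searched as TGACNNNGC on both strands in the 250 bases before the annotated start of the canonical GENCODE transcript. It was found in 2 of 9 members and in 10.7% of 12445 promoters of tested protein-coding genes. TATAAA was found in 2 of 9 members, Prdx3 and Prdx6, and in 7.64% of the same promoters. Both matches read on the opposite strand, and they begin 211 bases (Prdx3) and 184 bases (Prdx6) before the start. A match describes the letters and is no evidence of binding. The deposited tags are summed per gene, so the start used in these tumours was not located. The windows are chr1:161079099-161079348 (minus strand) for Prdx6 and chr4:116542491-116542740 (plus strand) for Prdx1, both GRCm39, with the core in capitals. In Prdx6 the core begins 63 bases before the start and reads TGACTTAGC on the gene's strand. In Prdx1 it begins 78 bases before the start and reads TGACTCAGC on the opposite strand.
Prdx6: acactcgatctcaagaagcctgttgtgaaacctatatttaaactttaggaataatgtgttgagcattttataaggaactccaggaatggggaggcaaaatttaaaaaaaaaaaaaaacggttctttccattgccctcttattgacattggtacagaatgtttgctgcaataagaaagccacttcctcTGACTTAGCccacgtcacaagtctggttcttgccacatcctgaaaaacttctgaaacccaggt
Prdx1: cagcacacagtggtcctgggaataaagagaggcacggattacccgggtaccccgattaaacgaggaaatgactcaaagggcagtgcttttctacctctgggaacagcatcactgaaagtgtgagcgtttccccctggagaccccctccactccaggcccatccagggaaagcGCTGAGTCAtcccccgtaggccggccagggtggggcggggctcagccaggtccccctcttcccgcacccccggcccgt

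The libraries held between 14850923 and 16891234 tags. Levels are CPM (tag counts relative to library size, corrected by TMM factors of 0.962 to 1.04), and 1 tag equals 0.0569 to 0.0700 CPM. A CAGE tag marks the 5′ end of an RNA, so levels of different genes are tags per transcript end and need no division by gene length. Log2 fold changes are MAdCAM1 over IgG. Markers of the labelled tissue were abundant, with 6296 to 10970 CPM summed over 8 epithelial marker genes. These markers differed between the groups, at 7023 and 6296 CPM in the IgG libraries (the controls) against 10970 and 9480 CPM under the antibody. Values of a pair are given with replicate 1 first, and 4 values in a row follow the sequence IgG 1, IgG 2, MAdCAM1 1, MAdCAM1 2. Summed levels of 5 smooth muscle genes were 1656, 89.0, 106 and 1877 CPM, so that 1 library of each group was high. In bulk tumours, fewer cells of a type and less RNA per cell cannot be told apart.

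Prdx6 stood apart from its paralogs. It was more than doubled in both tumours of anti-MAdCAM-1 treated mice, whereas the summed level of Prdx1 to Prdx5 lay between 1007 and 1183 CPM in all 4 libraries. Across the 9 genes, both antibody values exceeded both control values for 3 (Prdx4, Prdx6 and Gpx2), both lay below for 0, and 6 overlapped. Of all genes tested, 19.7% were higher in both and 18.7% lower in both. The median log2 fold change of the 9 genes was 0.13, beside −0.0012 for all genes tested. edgeR's quasi-likelihood test with Benjamini-Hochberg adjustment called 0 of the 9 members at an adjusted p under 0.05, as it did 0% of all 14331 genes. At an unadjusted p under 0.05 it had 1 of the 9, Prdx6. Among all genes tested, 5.09% met this cut-off as higher and 1.82% as lower in MAdCAM1. edgeR's exact test, which called 1.12% of all genes, and DESeq2, which called 1.67%, each called Prdx6 and no other member. Since this contrast led to the choice of the genes, nothing is read from these counts.

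**Figure D1:**
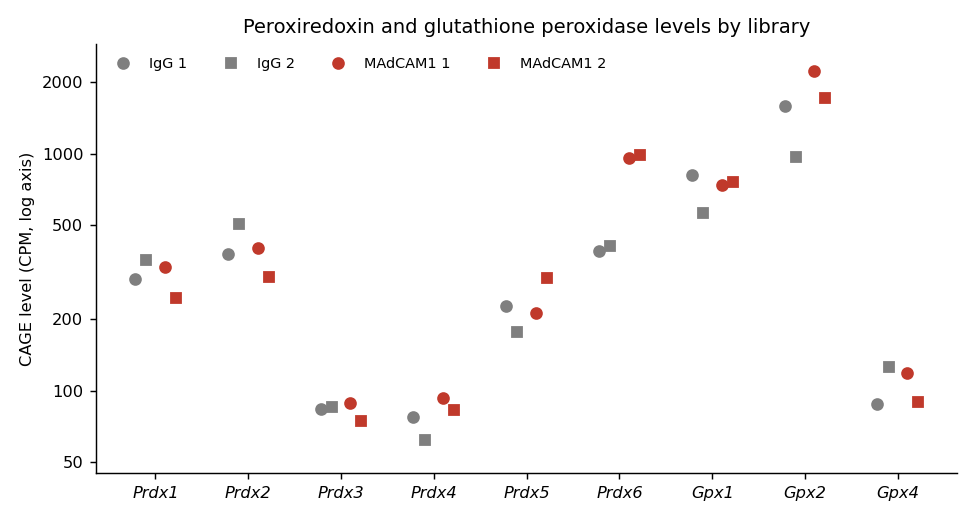
CAGE level in CPM on a log axis for each of the 9 genes, with grey points for the IgG libraries and red points for the MAdCAM1 libraries (circles for replicate 1, squares for replicate 2). The red points of Prdx6 lie at 956 and 989 CPM, above grey points at 387 and 407 CPM, while the points of Prdx1, Prdx2, Prdx3, Prdx5, Gpx1 and Gpx4 overlap.

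Prdx6 (ENSMUSG00000026701.16, chr1:161051417-161079098, minus strand) had 6801 and 6577 tags in the controls against 13662 and 15272 tags under the antibody. As levels these were 387 and 407 CPM (mean 397 ± 13.9, SD, n = 2) against 956 and 989 CPM (mean 973 ± 22.8, SD, n = 2), so that both antibody libraries were high and the groups lay far apart. The log2 fold change was 1.29 (SE 0.14), a fold of 2.45. The 2 IgG libraries differed by 0.072 and the 2 MAdCAM1 libraries by 0.048 on the log2 scale, and the gap between the groups was 1.23. Leaving out any single library gave 1.24 to 1.32, and scaling by library size alone gave 1.20, the lowest value over the alternatives. Of all genes tested, 3.11% had a log2 fold change at least as high. Of 547 genes with a mean level of at least 300 CPM, 15 did, Prdx6 included.

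The cytosolic peroxiredoxins did not follow it. Prdx1 (ENSMUSG00000028691.13, chr4:116532123-116558398), a peroxidase and chaperone of cytosol and nucleus, stood at 296 and 355 CPM in the controls against 333 and 247 CPM under the antibody. MAdCAM1 2 was lowest and IgG 2 highest, so the groups overlapped. Its log2 fold change was −0.17 (SE 0.22), and it turned to 0.034 without MAdCAM1 2. Prdx2 (ENSMUSG00000005161.16, chr8:85693354-85702350), best known from red blood cells, stood at 376 and 503 CPM in the controls against 401 and 302 CPM under the antibody. IgG 2 was again highest and MAdCAM1 2 lowest (log2 fold change −0.32, SE 0.24), and the value was −0.11 without IgG 2 and −0.13 without MAdCAM1 2. Summed levels of the 3 red blood cell genes Hbb-bs, Hbb-bt and Alas2 were also highest in IgG 2, at 13.1, 254, 32.7 and 43.1 CPM. Their part in the Prdx2 value was not tested. When libraries were scaled by size alone, Prdx2 and Prdx3 no longer overlapped and were lower in both MAdCAM1 libraries, where 28.6% of all genes were lower in both and 13.6% higher.

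The peroxiredoxins of the organelles had log2 fold changes between −0.047 and 0.34. Prdx3 (ENSMUSG00000024997.8, chr19:60852489-60863017), the mitochondrial member, stood at 83.4 and 85.1 CPM in the controls against 88.8 and 74.3 CPM under the antibody. The MAdCAM1 libraries lay on either side of the IgG pair (log2 fold change −0.047, SE 0.15), and the value was 0.076 without MAdCAM1 2. Prdx4 (ENSMUSG00000025289.16, chrX:154106813-154123750), which works in the endoplasmic reticulum and is secreted, stood at 77.3 and 61.9 CPM in the controls against 93.3 and 83.2 CPM under the antibody. Its groups did not overlap, with a gap of 0.11 on the log2 scale, while the IgG libraries differed by 0.32 (log2 fold change 0.34, SE 0.17). Without IgG 2 the log2 fold change of Prdx4 was 0.18. Prdx5 (ENSMUSG00000024953.18, chr19:6884065-6887792), found in mitochondria, peroxisomes and cytosol, stood at 227 and 177 CPM in the controls against 213 and 299.7 CPM under the antibody. It overlapped, and its log2 fold change of 0.34 (SE 0.25) was 0.072 without MAdCAM1 2, the library in which it was highest.

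The make-up of the peroxiredoxin tags shows the same difference without any scaling between libraries. Prdx6 gave 26.8% and 25.6% of all Prdx1 to Prdx6 tags in IgG 1 and IgG 2, and 45.9% and 49.5% in MAdCAM1 1 and MAdCAM1 2. The mean share was 26.2% ± 0.822 in IgG and 47.7% ± 2.61 in MAdCAM1 (SD, n = 2 each), 21.5 percentage points apart. Prdx2 was the leading peroxiredoxin of IgG 2 at 31.6%, and Prdx6 led in the other libraries. Its lead over Prdx2 in IgG 1 was narrow, with a tag ratio of 1.03 against 0.809 in IgG 2, 2.38 in MAdCAM1 1 and 3.27 in MAdCAM1 2. Beside each of the 5 paralogs the ratio of Prdx6 tags was higher in each antibody library than in either control. The ratio to Prdx1 was 1.31, 1.15, 2.87 and 4.002, and that to Prdx4 5.004, 6.57, 10.3 and 11.9. The log2 fold change of Prdx6 exceeded the paralog median (−0.047) by 1.34, and by 1.20 to 1.497 when any single library was left out.

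**Figure D2:**
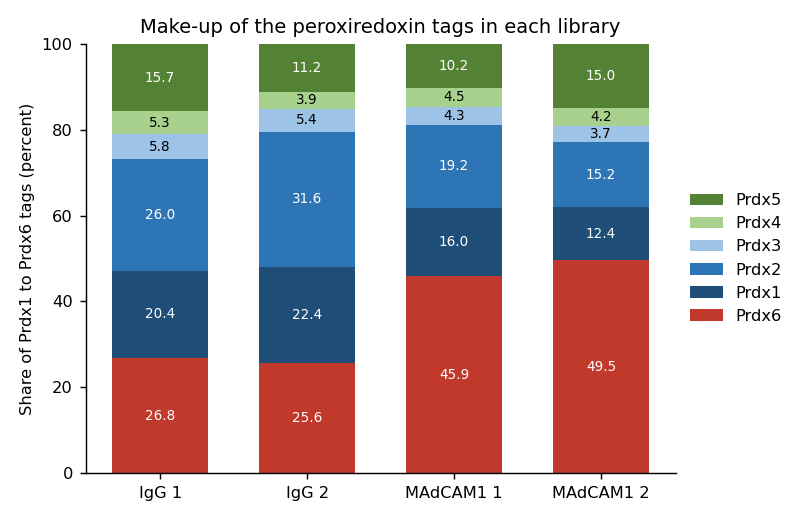
Stacked bars of the percent of Prdx1 to Prdx6 tags that belong to each gene, 1 bar per library, with Prdx6 in red at the base and the shares printed in the bars. The red part holds 26.8% and 25.6% in the IgG libraries and 45.9% and 49.5% in the MAdCAM1 libraries.

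Gpx2 was the most abundant of the 9 genes in all 4 libraries and held rank 37 of the 14979 genes by mean level. Gpx2 (ENSMUSG00000042808.11, chr12:76839107-76842326, minus strand) stood at 1586 and 964 CPM in the controls against 2241 and 1715 CPM under the antibody. The groups did not overlap, but IgG 1 lay only 0.11 below MAdCAM1 2 on the log2 scale, and the IgG libraries differed from each other by 0.72. Its log2 fold change of 0.63 (SE 0.31) was 1.02 without IgG 1 and 0.31 without IgG 2. Gpx1 (ENSMUSG00000063856.9, chr9:108216102-108217546), the peroxidase of most cells, held rank 186 at 809 and 563 CPM in the controls against 739 and 761 CPM under the antibody. Both MAdCAM1 libraries lay between the IgG libraries (log2 fold change 0.13, SE 0.23), and the value was −0.12 without IgG 2. Gpx2 tags outnumbered Gpx1 tags by 1.96 and 1.71 times in IgG and by 3.03 and 2.25 times in MAdCAM1.

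Gpx4 (ENSMUSG00000075706.12, chr10:79883000-79892273) was far lower than the other 2 glutathione peroxidases, at 87.7 and 126 CPM in the controls against 119 and 90.0 CPM under the antibody. The groups overlapped fully (log2 fold change −0.037, SE 0.26), and the sign changed when IgG 2 (0.24) or MAdCAM1 2 (0.15) was left out. Its count is uncertain in part, because the table also lists the processed pseudogene Gpx4-ps2 (chr10:45751387-45751941). The 555 bases of the pseudogene are 99.6% identical to the canonical Gpx4 transcript, with an identical run of 314 bases against reads of 75 nt. Gpx4-ps2 held 1115, 1827, 1214 and 1235 tags, beside 1542, 2044, 1695 and 1390 tags of Gpx4. The pseudogene had 0.716 to 0.894 tags for each Gpx4 tag. The annotated pseudogene aligns to bases 184 to 738 of the 959 bases of that transcript, and tags that begin inside the aligned part could match both. A read from the annotated start lies outside the aligned part. The genome beside the annotated pseudogene was not compared, so a match of such a read there was not tested. How reads that map to both were counted is not given in the sources used here.

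Among the 9 genes, Prdx6 alone had a log2 fold change outside the span from the 5th to the 95th percentile of all genes tested, which ran from −0.66 to 0.96. The glutathione peroxidases Gpx1 and Gpx4 and the peroxiredoxins Prdx1 and Prdx3 lay within 1 SE of 0. On the log2 scale the IgG libraries differed by 0.072 for Prdx6 and by 0.72, 0.52 and 0.53 for Gpx2, Gpx1 and Gpx4. The MAdCAM1 libraries differed by 0.048 for Prdx6 and by 0.386, 0.043 and 0.399 for Gpx2, Gpx1 and Gpx4. For Prdx1, Prdx2 and Prdx5 the larger of the gaps within a group was 0.432, 0.418 and 0.496.

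**Figure D3:**
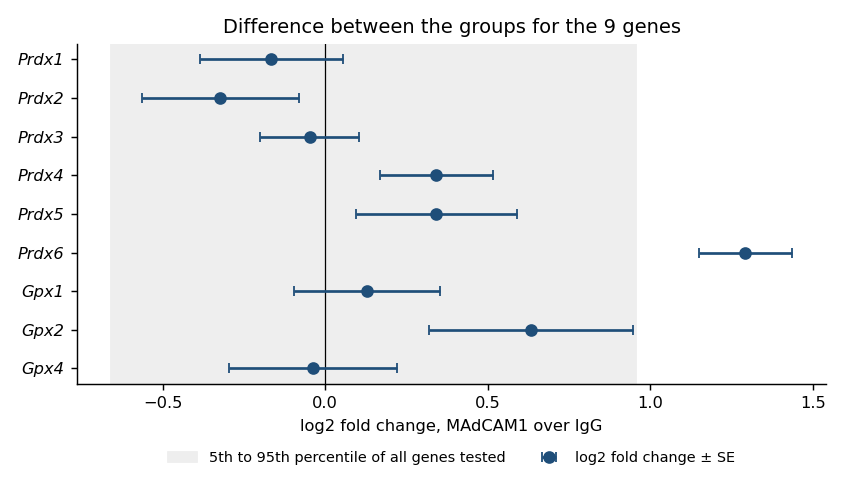
Log2 fold change of MAdCAM1 over IgG for each of the 9 genes (points) with its SE (bars), on a grey band from the 5th to the 95th percentile of all 14331 genes tested (−0.66 to 0.96). Prdx6 lies at 1.29, outside the band, and the other 8 genes lie inside it.

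The epithelial markers were themselves higher in the MAdCAM1 libraries, with 7 of 8 not overlapping, beside 19.7% of all genes tested higher in both. The quasi-likelihood and exact tests called 0 of the 8. DESeq2 called 3 higher (Cldn7, Vil1 and Epcam), as it did 1.53% of all genes. Levels were therefore also set against the tags of the 8 epithelial marker genes (Epcam, Cdh1, Krt8, Krt18, Krt19, Cldn3, Cldn7 and Vil1), a measure added after the data had been seen. Per 100 epithelial tags, Prdx6 had 5.51 and 6.46 tags in the controls against 8.72 and 10.4 under the antibody, 1.60 times as many by the group means. Gpx2 had 22.6 and 15.3 tags in the controls against 20.4 and 18.1 under the antibody, so that its groups overlapped on this measure. Prdx6 alone of the 9 was higher in both MAdCAM1 libraries on this measure, Gpx2 and Prdx5 overlapped, and the other 6 were lower in both. Of all genes tested, 3.5% were higher and 70.9% lower in both on this measure, whose denominator was itself higher under the antibody. Prdx2, for example, had 5.36 and 7.99 tags per 100 epithelial tags in the controls against 3.66 and 3.19 under the antibody. Surface colonocyte markers stood at 389 and 226 CPM in the controls against 1127 and 716 CPM under the antibody (7 genes summed), and goblet cell markers had 1265 and 479 against 6047 and 3782 CPM (7 genes summed). The summed level of 6 neutrophil markers overlapped, at 349, 556, 322 and 925 CPM, but single genes went opposite ways. Ly6g stood at 55.9 and 36.0 CPM in the controls and 126 and 188 CPM under the antibody, and both the exact test and DESeq2 called it higher. Camp (2.11 and 1.86 CPM in IgG, 0.0700 and 0.194 CPM in MAdCAM1) and Ngp (6.03 and 7.30 CPM in IgG, 0.140 and 1.23 CPM in MAdCAM1) did not overlap and were lower, and of these the exact test called Camp. The other 3 overlapped. The part of these cell types in the Prdx6 difference was not tested.

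The genes that supply and oppose these enzymes were taken from 8 lists, of which 81 of 87 genes were in the table and all 81 were tested. edgeR's quasi-likelihood test with Benjamini-Hochberg adjustment called 0 of the 81 in either direction. At an unadjusted p under 0.05 it had 8 higher (5.09% of all genes were) and 5 lower (1.82% of all genes were). The exact test called 1 gene with a positive and 2 with a negative log2 fold change, beside 1.06% and 0.0628% of all genes. For DESeq2 these were 3 and 2 genes, beside 1.53% and 0.14% of all genes. Values did not overlap for 15 higher genes (18.5%) and 12 lower genes (14.8%), close to the 19.7% and 18.7% of all genes. No list was tested as a set, and nothing is read from the counts per list below. The median log2 fold change of the 81 was 0.011.

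The list of thioredoxin supply and peroxiredoxin repair, which also holds other genes such as Txnip, had a median log2 fold change of 0.11. Of its 13 genes, 3 lay above both controls in each antibody library and 1 below, beside 19.7% and 18.7% of all genes. The quasi-likelihood test called 0 of the 13. That median was 0.062 without MAdCAM1 2 and 0.016 when libraries were scaled by size alone. Txn1, the cytosolic thioredoxin, stood at 1847 and 1230 CPM in the controls against 2481 and 2820 CPM under the antibody. Its log2 fold change was 0.78 (SE 0.25, edgeR adjusted p = 0.691). Srxn1, sulfiredoxin, which rescues overoxidised peroxiredoxins, stood at 82.2 and 73.8 against 118 and 105 CPM (0.51, SE 0.15; edgeR adjusted p = 0.691). Gstp1, the glutathione transferase that serves Prdx6, stood at 283 and 284 against 377 and 341 CPM, a log2 fold change of 0.34 (SE 0.15; edgeR adjusted p = 0.742). For Txn1, Srxn1 and Gstp1 the groups did not overlap, and none of the 3 passed the test. Txnrd1, the reductase that recharges thioredoxin, overlapped at 179, 234, 289 and 223 CPM. Sesn3, a sestrin, stood at 56.1 and 52.4 against 46.1 and 39.2 CPM.

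Genes of glutathione and NADPH supply were mixed. Of 17 genes, 3 lay above both controls in each antibody library and 4 below, beside 19.7% and 18.7% of all genes. The list had a median of −0.078 on the log2 scale. The median was 0.047 without IgG 1 and −0.043 without MAdCAM1 2. It was −0.174, with 7 genes below (28.65% of all genes were), when libraries were scaled by size alone. The cystine importer Slc7a11 stood at 80.5 and 63.2 CPM in the controls against 28.8 and 22.3 CPM under the antibody. Its log2 fold change of −1.49 (SE 0.22) missed the edgeR quasi-likelihood threshold (adjusted p = 0.640) and passed the exact test (0.00114) and DESeq2 (9.2e-05). Slc3a2, the partner chain of that importer, stood at 93.5 and 118 against 65.2 and 59.7 CPM (log2 fold change −0.76, SE 0.17; edgeR adjusted p = 0.665). The glutathione synthetase Gss had 197 and 157 CPM in the controls and 258 and 223 CPM under the antibody, and neither it nor the NADPH-making dehydrogenase Pgd (202 and 152 against 223 and 226 CPM) passed the test. The remaining genes without overlap were Ggt1 above and Nnt and G6pdx below. Gsr, which recycles glutathione, overlapped at 242, 151, 203 and 191 CPM.

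The enzymes that make superoxide and hydrogen peroxide had the highest median of the 8 lists, 0.62 over 12 genes. Of these 12, 6 lay above both controls in each antibody library and 0 below, beside 19.7% and 18.7% of all genes. The list median was 0.26 without MAdCAM1 2. The 8 epithelial markers had a median of 0.65, and the part of epithelial content in the list values was not tested. Duox2, the dual oxidase of the epithelial surface, stood at 87.7 and 70.5 CPM in the controls against 178 and 149 CPM under the antibody (log2 fold change 1.05, SE 0.19). Duoxa2, its maturation factor, stood at 65.5 and 60.5 against 117 and 116 CPM (0.88, SE 0.13). Nox1, the NADPH oxidase of colon epithelium, stood at 20.0 and 20.5 against 64.1 and 38.4 CPM (1.34, SE 0.30), and its activator Noxa1 at 16.5 and 12.4 against 27.9 and 23.1 CPM. None passed the quasi-likelihood test (edgeR adjusted p between 0.640 and 0.691). DESeq2 called Duox2, Duoxa2 and Nox1, as it called 1.53% of all genes higher. The exact test called Duox2 of these 4, at an edgeR adjusted p of 0.0493, as it called 1.06% of all genes higher.

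**Figure D4:**
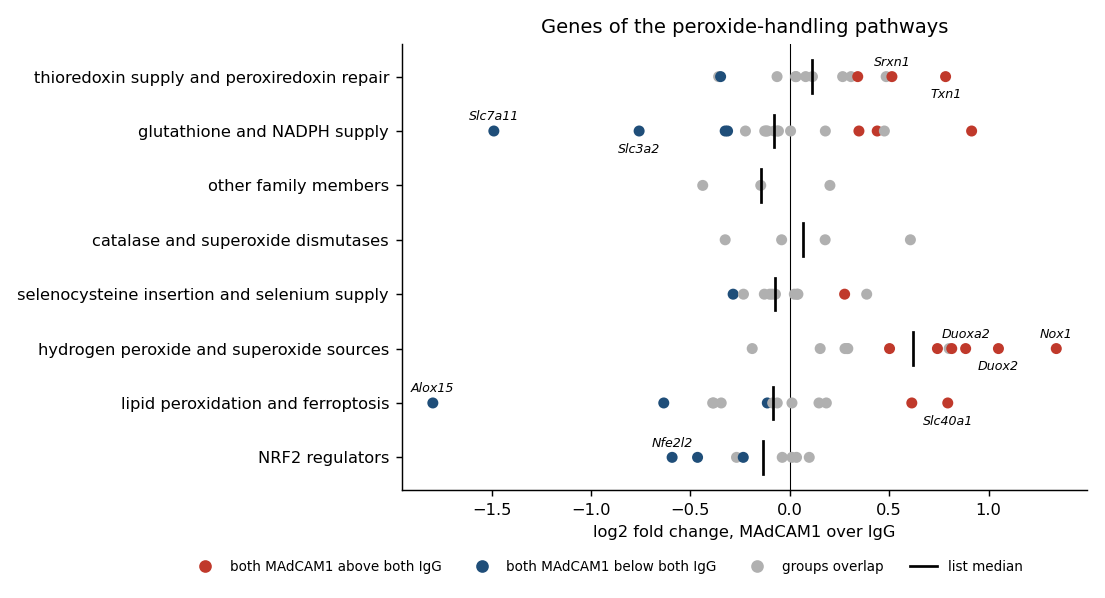
Log2 fold change of MAdCAM1 over IgG for each tested gene of the 8 lists, 1 row per list, with red points where both MAdCAM1 libraries were above both IgG libraries, blue where both were below, grey where the groups overlapped, and a black bar at the list median. The row of hydrogen peroxide and superoxide sources has its median at 0.62 and 6 red points, and Slc7a11 (−1.49) and Alox15 (−1.80) lie farthest to the left.

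Catalase, the superoxide dismutases and the further glutathione peroxidases showed no separation of the groups. Catalase (Cat) stood at 57.8 and 38.9 CPM in the controls against 33.9 and 43.3 CPM under the antibody, and 0 of the 4 genes of catalase and the superoxide dismutases lay on 1 side. Of the family members outside the 9, Gpx7 and Gpx8 were at most 15.0 CPM in each library. Gpx3, the secreted glutathione peroxidase, stood at 24.8, 106, 39.1 and 111 CPM, and Gpx8 at 15.0, 4.20, 1.12 and 13.01 CPM. Gpx3 was thus high in IgG 2 and MAdCAM1 2, in which the summed fibroblast markers were also high, at 399, 1152, 423 and 1505 CPM (6 genes). Among them, Lum went the other way within IgG, at 8.877 CPM in IgG 1 and 1.855 CPM in IgG 2. The part of fibroblasts in the Gpx3 value was not tested. Gpx7 stood at 3.02, 5.38, 3.50 and 4.08 CPM.

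Selenocysteine insertion, on which the 3 glutathione peroxidases depend, had a median log2 fold change of −0.072 over 11 genes. In both MAdCAM1 libraries 1 was higher (Sepsecs) and 1 lower (Sephs1), beside 19.7% and 18.7% of all genes. The median ran from −0.127 without MAdCAM1 1 through −0.021 without IgG 1 and −0.007 without MAdCAM1 2 to 0.044 without IgG 2, and was −0.169 with scaling by size alone. Selenop, the selenium carrier of plasma, overlapped at 59.9, 88.4, 81.3 and 113 CPM. Sephs1 stood at 33.4 and 37.1 CPM in IgG against 30.5 and 27.3 CPM in MAdCAM1, and Sepsecs, which makes selenocysteine on its transfer RNA, at 14.8 and 12.8 against 16.5 and 16.96 CPM.

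Lipid peroxidation and ferroptosis genes, the setting of Gpx4, had a median of −0.086 over 13 genes. In both MAdCAM1 libraries 2 were higher (Slc40a1 and Gch1) and 3 lower (Alox15, Alox5 and Ftl1), beside 19.7% and 18.7% of all genes. The median was −0.018 without IgG 2, −0.141 without MAdCAM1 1 and −0.184 with scaling by size alone. Alox15, a lipoxygenase that oxidises membrane lipids, stood at 79.0 and 39.3 CPM in the controls against 17.4 and 16.6 CPM under the antibody. Its log2 fold change of −1.80 (SE 0.39) missed the edgeR quasi-likelihood threshold (adjusted p = 0.665) and passed the exact test (0.0144) and DESeq2 (0.00426). The iron exporter Slc40a1 stood at 28.4 and 34.4 against 55.5 and 53.5 CPM (log2 fold change 0.79, SE 0.17; edgeR adjusted p = 0.665), and Gch1, which starts tetrahydrobiopterin synthesis, at 34.5 and 29.3 against 45.9 and 51.8 CPM.

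Regulators of NRF2, the factor whose binding core was matched by letters alone in the Prdx1 and Prdx6 promoters, had a median of −0.14 over 8 genes. In both MAdCAM1 libraries 0 of the 8 were higher and 3 lower, beside 19.7% and 18.7% of all genes. The list holds genes that act with NRF2 and genes that act against it, so its median has no direction for NRF2 activity. With scaling by size alone the median was −0.234. Nfe2l2, the gene of NRF2 itself, stood at 74.1 and 96.8 CPM in the controls against 58.6 and 54.8 CPM under the antibody (log2 fold change −0.59, SE 0.18; edgeR adjusted p = 0.691). Its small Maf partner Mafg stood at 63.3 and 61.8 against 48.7 and 42.0 CPM (−0.46, SE 0.15; edgeR adjusted p = 0.691). Cul3, part of the ligase that degrades NRF2, stood at 114 and 107 against 85.6 and 103 CPM.

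Across the 4 libraries, 5 genes of at least 10 CPM on average had the pattern most like that of Prdx6, by the summed squared distance of log2 levels centred on each gene's mean, out of 10409 compared. They were Kdelr3 (distance 0.0188), a receptor that returns proteins to the endoplasmic reticulum, Ly6m (0.0194), the semaphorin gene Sema6d (0.0339), the carbonic anhydrase Car9 (0.0563) and Ceacam10 (0.0570). Ly6m stood at 38.3 ± 1.75 CPM in IgG and 101 ± 8.72 CPM in MAdCAM1 (SD, n = 2 each). Of the other 8 members, Gpx2 was nearest at a distance of 0.801 and Prdx2 farthest at 2.77. With 4 libraries this likeness largely restates the difference between the groups.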

How the data were processed

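Colon tumours of 4 mice were measured by CAGE. Per the labels' protocols, RNA of integrity number above 7.0 was cap-trapped from random-primed cDNA and read as single ends of 75 nt. The mapping by the authors used BWA 0.7.17 on GRCm39, then HISAT2 2.0.5 for what was left, and RECLU formed the clusters. Of these, any below 0.1 CPM, at an irreproducible discovery rate of at least 0.1, or longer than 200 bp were removed, and regions with 90% overlap between replicates were kept with bedtools 2.12.0. edgeR 3.22.5 was named for expression. The summing of tags to genes is not given in the sources used here. The deposited values are raw tag counts per gene, and no column was left out.

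Groups came from the sample titles. Counts of 14331 genes kept by filterByExpr were scaled by TMM and compared, MAdCAM1 over IgG, with edgeR 4.0.16 on R 4.3.3 by its quasi-likelihood F test in robust mode, without a block, with Benjamini-Hochberg adjustment and a threshold of 0.05. The SE is the log2 fold change divided by the square root of F. P-values and SEs of this test rest on the spread between the 2 libraries per group, each taken as 1 mouse from the design text. For each gene the fit draws that spread toward the trend over all genes (median prior degrees of freedom 2.34). Members, lists and tests were chosen with earlier results of these data known. Named genes were the 9 members, up to 4 genes of each list with the smallest p, Slc7a11, Srxn1, Txnrd1, Gsr and Duox2, and the 5 genes nearest to Prdx6. A symbol listed under 2 identifiers with the same values (Nnt) was counted 1 time. Alternatives were other scalings and filters, leaving out each library, replicate blocks, DESeq2 1.42.0, limma-voom (limma 3.58.1) and edgeR's exact test. Coordinates and sequences are from GRCm39 and GENCODE M39.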

Additional observations from a re-analysis of the deposited data

How the results depend on the processing

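With 2 mice per group, the errors given rest on the spread between mice, moderated across all genes by the fit. Every member had at least 1001 tags in each library. The quasi-likelihood test called 0 genes under every scaling, filter and left-out library, and limma-voom called 0, whereas DESeq2 called 239 and the exact test 161. Prdx6 was positive under all 14 alternatives (1.20 to 1.32). It was among the calls of DESeq2 and the exact test. Prdx2 was negative and Prdx4, Prdx5 and Gpx2 positive under all of them, with ranges on leaving out a library of −0.54 to −0.11, 0.18 to 0.50, 0.072 to 0.57 and 0.31 to 1.02. Leaving out a library gave −0.40 to 0.034 for Prdx1 and −0.18 to 0.076 for Prdx3 (above 0 without MAdCAM1 2), −0.12 to 0.40 for Gpx1 (below 0 without IgG 2) and −0.29 to 0.24 for Gpx4 (above 0 without IgG 2 and, at 0.15, without MAdCAM1 2), and the cause was not tested. The Prdx6 share difference ran from 19.7 to 23.4 percentage points when a library was left out. Scaling by library size alone moved the median of all genes to −0.099. With the replicate block 0 genes were called, and the block changed no call of a member (Prdx6 log2 fold change 1.29). The labels do not tie the replicate numbers of the groups to each other, and deviations of same-numbered libraries correlated at −0.13 across genes. The crossed block, added after the data were seen, also called 0 genes.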
